A study of Mus musculus with 6 samples.

Results

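Vcam1, Icam1, Icam2, Sele, Selp, Ackr1 and Vwf are genes through which vessel walls and serosal linings hold or steer leukocytes. They were picked by symbol, and all 7 were found among the 32285 genes of each of 6 single-cell count matrices. The matrices hold RNA molecules counted by 10x Genomics 3' v3 droplet sequencing in pancreatic tumours of mice that all carried P53LSL.R172H/+ and Pdx1-Cre, in which Cre driven by the Pdx1 promoter switches on mutant p53 in the pancreatic epithelial lineage. IPI-926, an inhibitor of the Hedgehog transducer Smoothened, was given by mouth each day at 40 mg/kg to 3 mice. The other 3 mice received its vehicle, hydroxypropyl-beta-cyclodextrin at 5% w/w in water. All 6 mice are labelled as treated for 2 days, and tumours were taken 2 hours after the last dose. Ages are not given in the sources used here. The labels give each library its own animal identifier and no pairing between groups, so replicate numbers below only name libraries.

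Leukocytes leave the blood in steps. Selectins on the vessel wall catch rolling cells, chemokines on the wall activate their integrins, and immunoglobulin-type adhesion molecules then hold the integrins. Sele encodes E-selectin, made by activated endothelium, and Selp encodes P-selectin, which endothelial cells and platelets store in granules together with von Willebrand factor, the product of Vwf. Icam1 and Icam2 encode ligands of the leukocyte integrins that contain Itgb2, the former raised by inflammatory cytokines and the latter carried by resting endothelium. Vcam1 encodes a ligand of the integrin made from Itga4 and Itgb1, and Ackr1 encodes an atypical chemokine receptor that marks venules. Mesothelial cells, the lining of the abdominal organs, also carry adhesion molecules for leukocytes.

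In GRCm38 the genes lie on chromosomes 1 (Sele, Selp and Ackr1), 3 (Vcam1), 6 (Vwf), 9 (Icam1) and 11 (Icam2). Sele occupies chr1:164048234-164057677 and Selp chr1:164115264-164150026, both on the plus strand, with 57586 bases between them. RefSeq's GRCm38.p6 promoter table held an entry for 4 of the 7 genes. The stretches of 250 bases before the start of Sele, Selp and Icam1 are shown because both selectin genes are neighbours whose levels are compared below, and because Icam1 was seen in many classes of cells. Capitals mark matches to a kappaB consensus (named only), to the AP-1 motif TGANTCA and to TATAAA, searched on both strands.
Sele, chr1:164047984-164048233, plus strand: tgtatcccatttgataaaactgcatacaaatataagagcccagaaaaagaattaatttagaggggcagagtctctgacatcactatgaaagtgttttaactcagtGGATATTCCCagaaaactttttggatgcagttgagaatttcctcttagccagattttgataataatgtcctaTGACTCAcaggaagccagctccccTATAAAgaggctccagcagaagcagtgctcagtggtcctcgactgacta
Selp, chr1:164115014-164115263, plus strand: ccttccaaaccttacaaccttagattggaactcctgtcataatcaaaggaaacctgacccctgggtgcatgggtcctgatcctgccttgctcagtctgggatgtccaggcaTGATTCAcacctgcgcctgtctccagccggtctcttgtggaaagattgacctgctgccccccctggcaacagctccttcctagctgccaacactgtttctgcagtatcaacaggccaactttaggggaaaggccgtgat
Icam1, chr9:21015690-21015939, plus strand: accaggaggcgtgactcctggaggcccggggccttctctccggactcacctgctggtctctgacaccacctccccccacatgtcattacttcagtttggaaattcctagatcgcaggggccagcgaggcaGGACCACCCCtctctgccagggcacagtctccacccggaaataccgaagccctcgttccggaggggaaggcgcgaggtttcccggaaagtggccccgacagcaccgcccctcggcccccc
The Sele stretch held a kappaB match 145 bases before the start, an AP-1 match at 73 bases and TATAAA at 49 bases. The Selp stretch held 1 match, to AP-1 at 139 bases, and the Icam1 stretch 1 match, to the kappaB consensus at 120 bases. No matches overlapped. Of 32851 promoter windows of the same length, 23.2% held a kappaB match, 6.75% an AP-1 match and 12.4% TATAAA, so these matches are a description of the letters.

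The libraries held 100810942 to 174929328 UMIs (counted RNA molecules) in 8114 to 17276 cell barcodes, and 449 of the 62905 barcodes occurred in more than 1 library, at most 59 in a pair of libraries. After filtering and removal of marked doublets 50346 cells were used, of which 38825 fell into clusters named by markers that did not include the 7 genes. The median cell held 4335 to 7778.5 UMIs in the vehicle libraries and 2647 to 3878 in the IPI-926 libraries. In fibroblasts the Hedgehog target Gli1 was at 9.97, 10.7 and 11.6 CPM (the gene's UMIs scaled by all UMIs of the class in the library) after vehicle and at 0.39, 1.38 and 0.174 CPM after IPI-926. The latter rest on 3, 2 and 16 UMIs. Ptch1, also set as a check of the drug, was at 32.3, 14.7 and 29.7 CPM after vehicle and at 8.19, 10.3 and 3.05 CPM after IPI-926. The log2 fold changes were -4.85 and -1.86, and neither gene passed the adjusted test (edgeR adjusted p = 0.877 for each). In IPI-926 replicate 3, 2091 of the 2149 fibroblasts behind these values lay in a cluster of that library alone. IPI-926 replicate 3 stood apart: it alone supplied a cluster of 2091 fibroblasts led by Crabp1 and Cthrc1, 99.3% of 1754 macrophages led by Cxcl9 and Fcgr4, and 99.6% of 272 endothelial cells led by the interferon-responsive genes Cxcl9, Ubd and Cd74. Values without it are given beside the comparisons it moves most.

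Levels below are in these CPM, for each class and library.
Among the classes put in order, 5 of the 7 genes were highest in endothelial cells. Vcam1 had its highest mean there in mesothelial cells, and Icam1 was highest in neutrophils. Acinar cells, too few in most libraries, were left out of that order. Their 270 cells held 1886 Vcam1 UMIs, beside 8193 in 1859 mesothelial cells. Whether Vcam1 was higher in acinar than in mesothelial cells was not tested. The endothelial class held 1747 cells, 80 to 589 per library, and all 12 of its markers were detected in every library. Their summed level was 7206 to 9888 CPM there, against 66.7 to 243 CPM in mesothelial cells. Classes come from clustering the same cells, so differences between them are described and not tested.

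**Figure D1:**
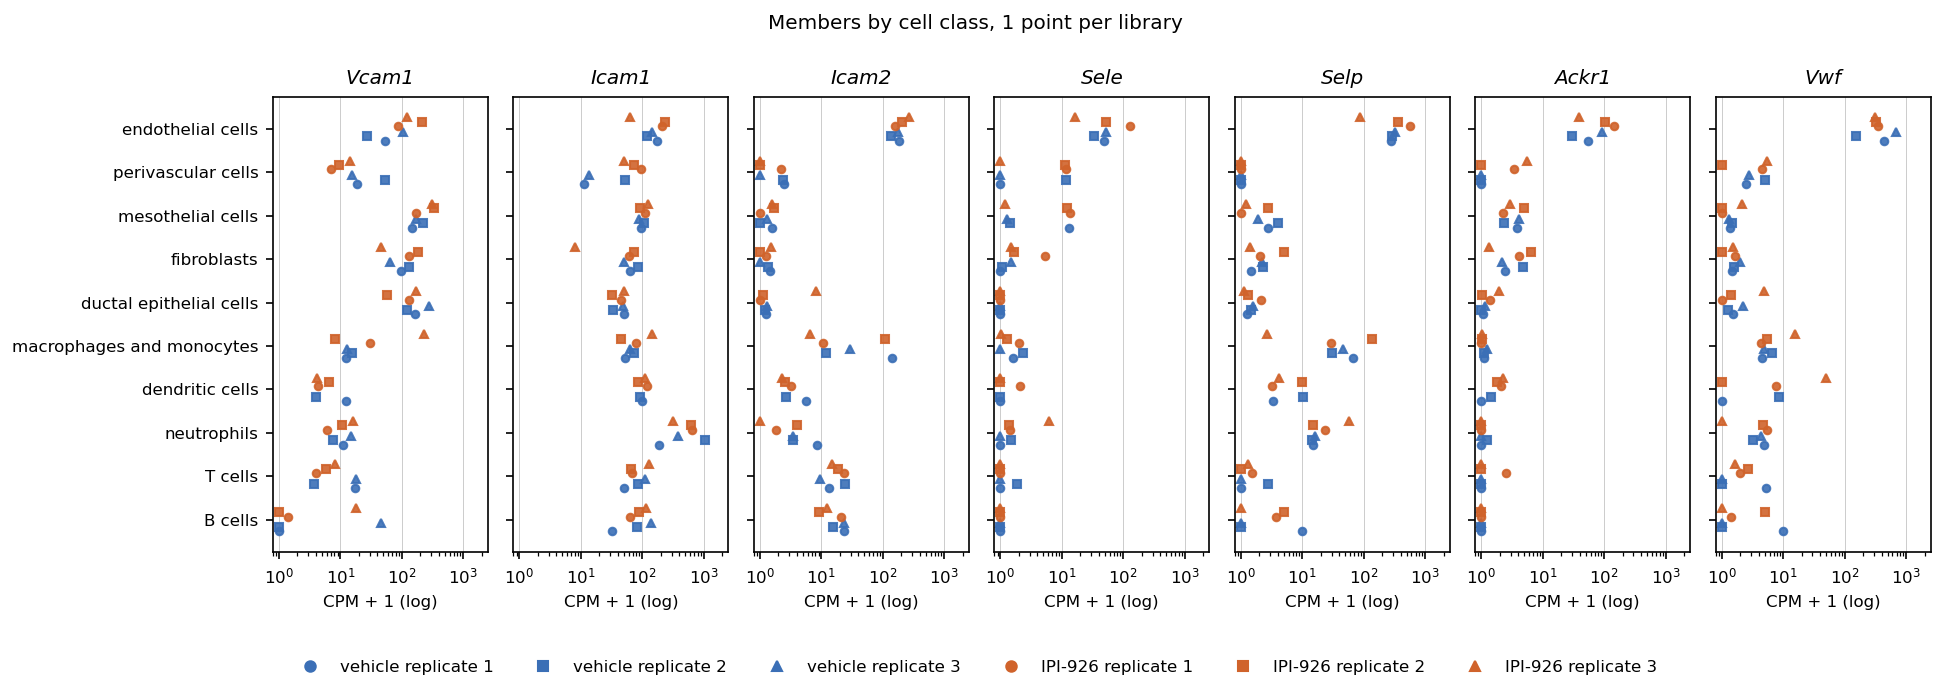
Level of each of the 7 genes (CPM + 1, log axis) in 10 cell classes, with 1 point per library that had at least 20 cells of the class. Icam2, Sele, Selp, Ackr1 and Vwf lie furthest right in endothelial cells, while Vcam1 and Icam1 reach comparable levels in several classes.

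Vwf, the carrier of clotting factor and platelet tether, had the narrowest distribution: endothelial cells held 80.0% of its 6598 UMIs. Its mean level was 376 CPM in endothelial cells and 12.5 CPM in dendritic cells, the next class, and the order held in 5 of 5 libraries. Ackr1 followed, with 76.3% of 1321 UMIs in endothelial cells and means of 76.1 CPM there and 2.56 CPM in fibroblasts (6 of 6 libraries). Sele averaged 54.3 CPM in endothelial cells and 6.09 CPM in mesothelial cells (6 of 6 libraries). No Sele UMI was seen in ductal epithelial cells, where a count of 0 allows at most 0.0369 to 1.12 CPM per library. No Selp UMI was seen in perivascular cells, which allows at most 3.59 to 13.6 CPM. These floors cover counting error only.

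Selp and Icam2 had a second source. Macrophages and monocytes held 50.8% of the 10452 Selp UMIs and 58.8% of the 8057 Icam2 UMIs, a class of 11649 cells. In CPM, endothelial cells stood above them in 6 of 6 libraries, with means of 315 against 51.3 CPM for Selp and 188 against 50.4 CPM for Icam2. Icam2 came next in T cells (16.5 CPM) and B cells (16.4 CPM), which did not differ beyond their spread.

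Vcam1 and Icam1 were spread over many classes. Vcam1 averaged 224 CPM in mesothelial cells, 153 CPM in ductal epithelial cells, 107 CPM in fibroblasts and 101 CPM in endothelial cells, and no neighbouring pair in that order differed beyond the spread over libraries. Ductal epithelial cells held 51.2% of all Vcam1 UMIs and endothelial cells 1.93%. Icam1 averaged 528 CPM in neutrophils and 155 CPM in endothelial cells, a difference beyond the spread that held in 6 of 6 libraries. Endothelial and mesothelial cells (101 CPM) did not differ in Icam1 beyond it.

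Over 64 sums of a class in a library, the 3 genes most like each member were found by their correlation in log2(CPM + 1). These correlations share libraries and cell classes and are descriptions. Vwf was most like Nos3 (endothelial nitric oxide synthase, Pearson r = 0.912), Tal1 (0.908) and Adgrl4 (0.904). Ackr1 was most like Unc45b (0.949), Sox18 (a transcription factor of endothelium, 0.93) and Ccm2l (0.916). Selp was most like Clec1a (0.884), Mctp1 (0.823) and Tal1 (0.822), and Icam2 was most like Mfng (0.885), Pecam1 (the endothelial and leukocyte junction molecule, 0.843) and Fam167b (0.814). Sele was most like Thsd1 (0.855), Vwa1 (0.815) and Ldb2 (0.814). Vcam1 was most like Cpne8 (0.845), Smim7 (0.807) and Bag3 (0.803). Icam1 was most like Ppp1r15a (a phosphatase subunit of the stress response, 0.806), Tut7 (0.793) and Socs3 (the cytokine feedback inhibitor, 0.763). Between members r was 0.806 for Sele and Ackr1, 0.777 for Ackr1 and Vwf, 0.755 for Selp and Vwf, and 0.129 for Vcam1 and Icam1.

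In endothelial cells the comparison asks whether a brief block of Smoothened goes with other levels of the vessel wall's adhesion molecules. No member passed the test, and at an adjusted p of 0.05 the background was 0 of 10495 genes called (0%) by edgeR's quasi-likelihood test. At an unadjusted edgeR p under 0.05 there were 397 genes, with 1.73% of all genes tested higher and 2.05% lower, and 1 of the 7 members, Vcam1, was among them. DESeq2 called 19 genes at an adjusted p of 0.05. No member's groups were separate, beside 3.22% of genes with IPI-926 wholly above vehicle and 7.9% wholly below. Log2 fold changes below are IPI-926 minus vehicle from edgeR with trimmed-mean scaling, each with n = 3 libraries per group unless stated.

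Among the selectins, Sele was at 47.1, 32.7 and 51.9 CPM in vehicle replicates 1 to 3 and at 127, 51.9 and 15.1 CPM in IPI-926 replicates 1 to 3. IPI-926 replicate 1 was the highest of all libraries and replicate 3 the lowest. The log2 fold change was 0.65 with an SE of 0.72 (edgeR adjusted p = 0.972). In IPI-926 replicate 2 a few cells carried the value: 48 of its 83 Sele UMIs lay in 9 lymphatic-like cells, and without these cells it was at 26.2 CPM, below the vehicle libraries without theirs (34.4 to 53.7 CPM). Selp was at 274, 287 and 324 CPM after vehicle, a narrow range, and at 560, 359 and 87.2 CPM after IPI-926. IPI-926 replicates 1 and 2 lay above all vehicle libraries and replicate 3 below all of them. Its log2 fold change was 0.27 with an SE of 0.62 (edgeR adjusted p = 0.983). The same 9 cells held 198 of the 575 Selp UMIs of IPI-926 replicate 2. They were at 753 CPM for Selp and 182 CPM for Sele. Lymphatic-like cells of the other libraries were at 35.8 to 136 CPM for Selp and 0 to 49.6 CPM for Sele. Without lymphatic-like cells IPI-926 replicate 2 was at 282 CPM for Selp, below the vehicle libraries (295 to 333 CPM), and not above them. Without these cells in any library, an alternative added after the values were seen, the log2 fold changes were 0.43 for Sele and 0.11 for Selp.

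Of the granule and chemokine-binding genes, Vwf was at 444, 150 and 681 CPM after vehicle and at 347, 324 and 310 CPM after IPI-926. The IPI-926 libraries sat close together inside the wide vehicle range (log2 fold change -0.28, SE 0.46, edgeR adjusted p = 0.98). It was 0.18 without vehicle replicate 3, the highest library. Ackr1 was at 53.9, 28.6 and 90.0 CPM after vehicle and at 143, 103 and 38.2 CPM after IPI-926. IPI-926 replicates 1 and 2 were above every vehicle library, and replicate 3 lay between vehicle replicates 1 and 2 (0.83, SE 0.57, edgeR adjusted p = 0.96).

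Of the integrin ligands, Vcam1 was at 51.9, 26.2 and 104 CPM after vehicle and at 86.6, 214 and 122 CPM after IPI-926. The ranges overlapped through vehicle replicate 3. The log2 fold change was 1.32 with an SE of 0.53 and did not pass the adjusted test (edgeR adjusted p = 0.96). It fell to 0.63 (edgeR adjusted p = 0.964) without the lymphatic-like cells. In IPI-926 replicate 2 the 9 lymphatic-like cells carried 259 of the library's 343 endothelial Vcam1 UMIs, at 984 CPM, and the remaining endothelial cells were at 62.9 CPM. Vehicle libraries also held more ductal epithelial marker RNA in their endothelial sums (1535, 451 and 1231 CPM, against 96.4, 230 and 99.5 CPM after IPI-926, with 12 to 14 of the 14 markers detected), and ductal cells express Vcam1. The part of that RNA in the result was not tested.

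Icam1 was at 173, 116 and 142 CPM after vehicle and at 205, 231 and 61.7 CPM after IPI-926. As for Selp, IPI-926 replicates 1 and 2 lay above all vehicle libraries and replicate 3 below all of them (log2 fold change 0.29, SE 0.48, edgeR adjusted p = 0.98). Of the 370 Icam1 UMIs of IPI-926 replicate 2, 149 lay in the 9 lymphatic-like cells. Without such cells it was at 165 CPM, inside the vehicle range of 106 to 167 CPM, and the log2 fold change was 0.077. Icam2 was at 184, 135 and 174 CPM after vehicle and at 160, 205 and 271 CPM after IPI-926, with IPI-926 replicate 3 the highest library (0.43, SE 0.21, edgeR adjusted p = 0.96). Icam2 and Vcam1 were the members for which replicate 3 was not the lowest IPI-926 library.

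**Figure D2:**
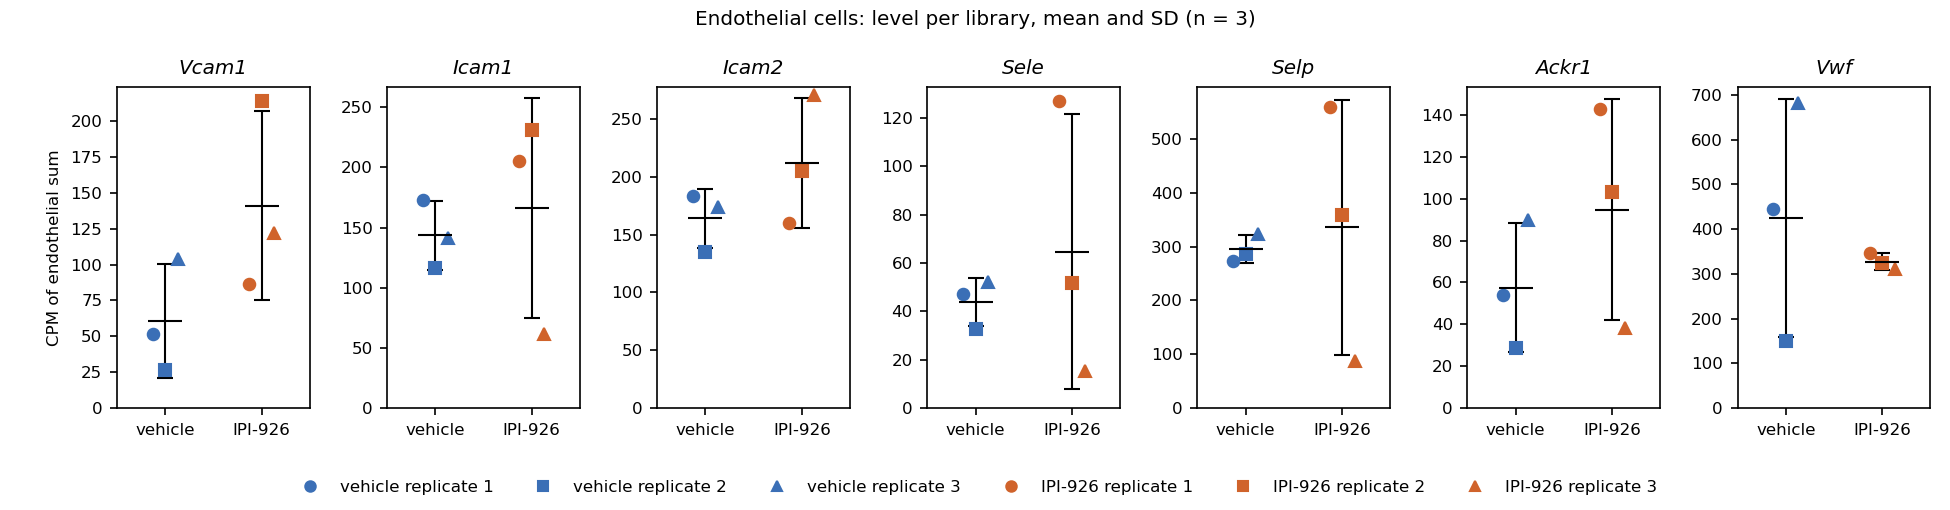
Level of each gene in endothelial cells by library (CPM, linear axes from 0), with the mean as a line and the SD as a bar (n = 3 per group). IPI-926 replicate 3 is the lowest library for Icam1, Sele and Selp and the highest for Icam2.

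Without IPI-926 replicate 3, which leaves 3 libraries against 2, log2 fold changes were 1.43 for Vcam1, 0.69 for Icam1, 0.24 for Icam2, 1.14 for Sele, 0.73 for Selp, 1.22 for Ackr1 and -0.22 for Vwf. Icam1, Selp, Sele and Ackr1 were then at an unadjusted p under 0.05, beside 1.21% of 10623 genes that were higher at that level. Icam1, Selp and Ackr1 had IPI-926 wholly above vehicle, beside 6.01% of genes. For Icam1 and Selp this rested on the 9 lymphatic-like cells of IPI-926 replicate 2, as the values without them show. Ackr1 in that library was at 99.5 CPM without them, against 93.0 CPM in the highest vehicle library. No member passed the adjusted test there either (edgeR adjusted p = 0.997 for these 4). Most endothelial cells of replicate 3 fell in the unnamed interferon-responsive cluster, 271 of 338, in which Selp was at 111 CPM, Sele at 21.3 CPM, Icam1 at 67.8 CPM, Ackr1 at 52.9 CPM, Vcam1 at 136 CPM and Icam2 at 269 CPM. Its macrophage marker sum was also the highest of the 6 endothelial sums, at 666 CPM against 139 to 444 CPM in the others, and the part of that RNA was not tested.

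Cells with at least 1 UMI were counted after thinning each cell to 1000 UMIs, since vehicle and IPI-926 cells differed in depth. Unlike the library medians given above, mean UMIs per endothelial or mesothelial cell were on average higher after IPI-926, with overlapping ranges. Shares without thinning carry that difference in depth. Vcam1 was then found in 4.67% ± 1.07 (SD, n = 3) of endothelial cells after vehicle and in 7.77% ± 2.22 after IPI-926 (two-sided exact permutation p = 0.2, where 20 assignments allow no less than 0.1). Without thinning the shares were 16.8% and 34.1% (exact p = 0.1). For Icam2 they were 15.1% and 17.2% after thinning (exact p = 0.9), and 48.8% and 65.3% without it (exact p = 0.1). None of the 14 shares in endothelial and mesothelial cells reached the smallest p the design allows at 1000 UMIs. Vcam1 in endothelial cells did so at 500 UMIs (2.96% against 5.16%, exact p = 0.1) and at 2000 UMIs (8.72% against 14.7%, exact p = 0.1).

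The endothelial class was split further, again leaving the members out, and its clusters were named by markers of vessel type. Some unnamed clusters were led by genes of other cell types: Tff2 and Gkn2 (105 cells), S100a9 and S100a8 (52), Rgs5 and Pdgfrb (37), and Chil4 and Cdh17 (23). Their cells are inside the endothelial sums given above. Venous-like cells carried the highest levels of Selp and Ackr1. Selp was at 1107, 1145 and 883 CPM in venous-like cells of the vehicle libraries, which had 63, 47 and 156 such cells, and at 39.0 and 80.8 CPM in arterial-like cells of vehicle replicates 1 and 3. Ackr1 was at 277, 139 and 261 CPM in the former and at 8.35 and 11.8 CPM in the latter. Sele followed the same order, with 168, 161 and 132 CPM against 8.35 and 7.84 CPM. Icam2 went the other way, at 65.9, 125 and 115 CPM in venous-like and 239 and 227 CPM in arterial-like cells. Vwf was high in both, at 1036, 330 and 992 CPM against 590 and 648 CPM. In tip-like cells, which lead sprouting vessels, Ackr1 was at 0, 0.834 and 0 CPM in the vehicle libraries. It was at 48.2 CPM in IPI-926 replicate 1, the only IPI-926 library with at least 20 such cells. That library had 31 tip-like cells, so the value rests on a small sum, and the difference was not tested. Shares of the types are not compared, since 87.6% of the endothelial cells of IPI-926 replicate 3 stayed unnamed.

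**Figure D3:**
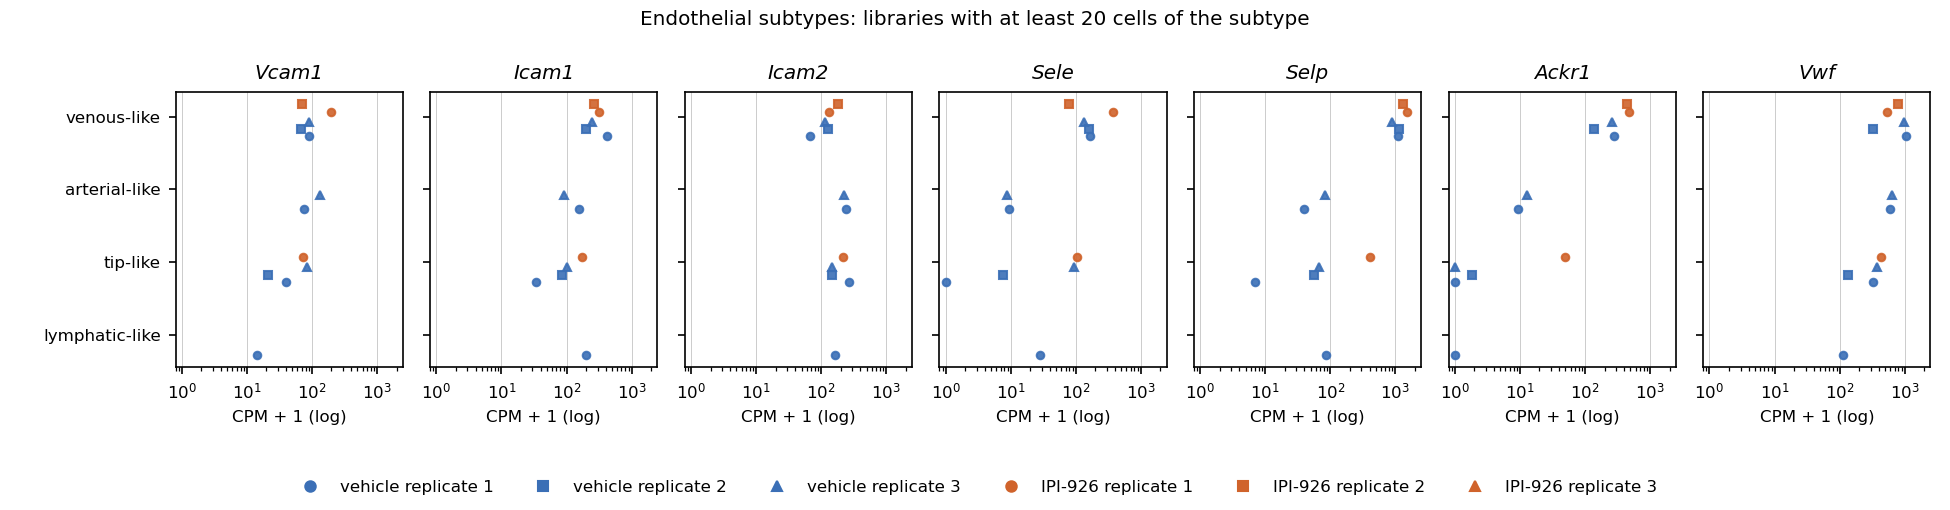
Level of each gene (CPM + 1, log axis) in endothelial types named by markers, with 1 point per library that had at least 20 cells of the type. Venous-like cells hold the highest points for Selp and Ackr1, and IPI-926 replicates 1 and 2 stand above the 3 vehicle libraries for both.

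Venous-like cells could be compared over 3 vehicle libraries and 2 IPI-926 libraries, with 34 cells in IPI-926 replicate 1 and 21 in replicate 2, since replicate 3 had 2 such cells. Ackr1 was at 473 and 447 CPM after IPI-926, above the vehicle values given above. Its log2 fold change was 1.11 with an SE of 0.28 (edgeR adjusted p = 0.489), and it ranged from 0.89 to 1.30 when a library was left out. Without the filter on low counts the edgeR adjusted p was 0.0297, at a log2 fold change of 1.09, and Ackr1 was then among 37 genes called. Selp was at 1522 and 1299 CPM after IPI-926 (0.49, SE 0.24, edgeR adjusted p = 1.0). Icam2 was at 130 and 183 CPM (0.63, SE 0.29, edgeR adjusted p = 1.0). These 3 members had IPI-926 wholly above vehicle, beside 6.66% of 6292 genes. Vcam1, Icam2 and Ackr1 were at an unadjusted edgeR p under 0.05, beside 2.1% of genes, and the background at an adjusted p of 0.05 was 0% (263 genes at an unadjusted p under 0.05, and 2 called by DESeq2).

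The other members of venous-like cells overlapped between the groups. Sele was at 374 and 77.1 CPM after IPI-926, on both sides of vehicle. Icam1 was at 412, 196 and 245 CPM after vehicle and at 318 and 260 CPM after IPI-926. Vcam1 was at 87.9, 66.0 and 87.8 CPM after vehicle and at 193 and 69.0 CPM after IPI-926, so that its fold change of 0.86 (edgeR adjusted p = 1.0) rested on IPI-926 replicate 1.

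Mesothelial cells carried Vcam1 and Icam1 in every library. Vcam1 was at 146, 219 and 166 CPM after vehicle and at 170, 334 and 306 CPM after IPI-926, so that IPI-926 replicates 2 and 3 lay above all vehicle libraries and replicate 1 inside their range. The log2 fold change was 0.66 with an SE of 0.30 (edgeR adjusted p = 0.999), and it was 0.58 without IPI-926 replicate 3. Icam1 was at 93.4, 104 and 88.9 CPM after vehicle and at 109, 91.4 and 121 CPM after IPI-926 (0.21, SE 0.18, edgeR adjusted p = 0.999). The background in this class was 0 of 11787 genes (0%) at an adjusted p of 0.05, with 471 at an unadjusted p under 0.05 and 31 called by DESeq2. Icam2, Selp and Vwf were at most at 0.671, 3.09 and 1.16 CPM in any mesothelial sum and were not tested.

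Sele was present in the mesothelial cells of 3 libraries and nearly absent from those of the other 3. It was at 11.9, 0.441 and 0.304 CPM after vehicle (229, 1 and 1 UMIs) and at 12.4, 11.3 and 0.194 CPM after IPI-926 (20, 84 and 1 UMIs). In vehicle replicate 1 these UMIs came from 83 of 1056 cells, in IPI-926 replicate 1 from 3 of 58 cells, and in IPI-926 replicate 2 from 17 of 209 cells with 72.6% of them in 5 cells. The high libraries were vehicle replicate 1 and IPI-926 replicates 1 and 2, so they cross the groups (log2 fold change 0.65, SE 1.37, edgeR adjusted p = 0.999). In those 3 libraries the mesothelial level was 25.3%, 9.76% and 21.7% of the endothelial level of the same library. Pecam1 and Cdh5, the junction genes of endothelium, were at most at 0.278% and 0.185% of their endothelial levels in any library, and Selp at most at 1.08%. Other endothelial genes stood higher: Ackr1 was at 0.868% to 5.23% and Plvap at up to 1.19%, and the junction gene Esam averaged 40.0 CPM in mesothelial and 561 CPM in endothelial cells. Of the 12 endothelial markers 12, 5 and 10 had UMIs in the 3 libraries with Sele, where they summed to 166, 118 and 66.7 CPM, and their part in the result was not tested. Markers of perivascular cells moved with Sele: their summed level in the mesothelial cells was 1457, 1702 and 1172 CPM in the 3 libraries with Sele and 327 to 422 CPM in the other 3, with 10 to 12 of 12 markers detected. Their part in the result was not tested. In perivascular cells themselves Sele rested on 23 UMIs, at 0, 10.8 and 0 CPM after vehicle and at 10.8, 10.1 and 0 CPM after IPI-926.

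**Figure D4:**
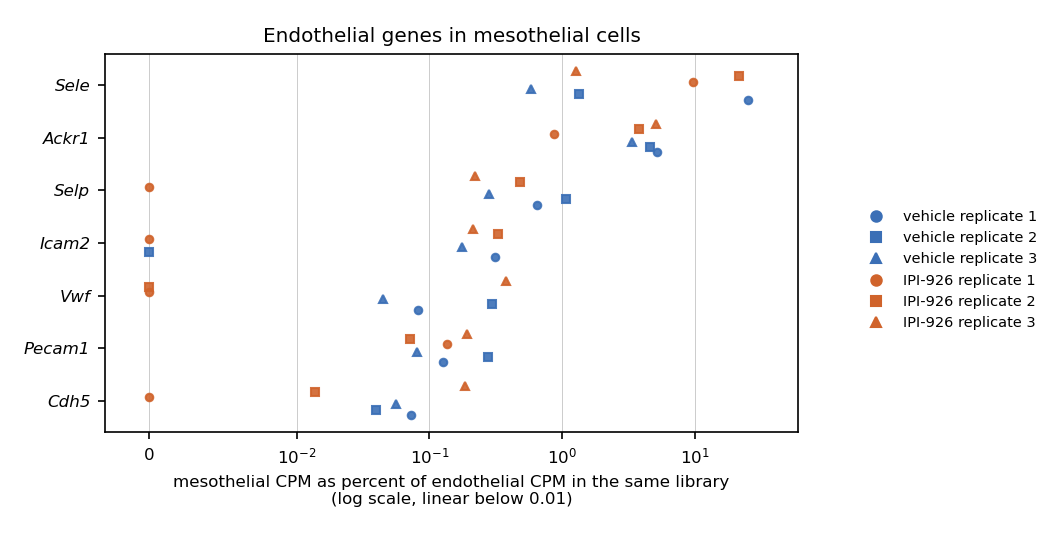
Level in mesothelial cells as a percent of the level in endothelial cells of the same library, for 5 members and for the endothelial junction genes Pecam1 and Cdh5 (log axis, linear below 0.01). Sele reaches 25.3%, 9.76% and 21.7% in 3 libraries, while Pecam1 and Cdh5 stay at or below 0.278%.

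The response of a gene in mesothelial cells minus that in endothelial cells was tested within libraries with limma. The difference was -0.74 for Vcam1 (SE 0.56, adjusted p = 0.938), 0.15 for Icam1 (SE 0.63, adjusted p = 0.989), 1.12 for Sele (SE 1.35, adjusted p = 0.951) and -0.74 for Ackr1 (SE 0.62, adjusted p = 0.938), beside 0.0202% of 9905 genes called. Without IPI-926 replicate 3 the differences were -0.94 for Vcam1, -0.57 for Icam1, 1.85 for Sele and -1.25 for Ackr1. With other single libraries left out they came as near to none as -0.17 for Vcam1, 0.22 for Sele and -0.0093 for Ackr1. The endothelial side includes the 9 lymphatic-like cells of IPI-926 replicate 2. For fibroblasts minus endothelial cells the difference was -1.14 for Vcam1 (SE 0.79), -1.04 for Icam1 (SE 0.43) and -0.63 for Ackr1 (SE 0.87). Each was at a limma adjusted p of 0.974, beside 0% of 10070 genes called (367 at an unadjusted p under 0.05). Without IPI-926 replicate 3 these were -0.68, -0.63 and -0.25.

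In fibroblasts Vcam1 was at 94.5, 128 and 62.2 CPM after vehicle and at 130, 180 and 45.3 CPM after IPI-926 (0.33, SE 0.52, edgeR adjusted p = 0.919). IPI-926 replicates 1 and 2 were above all vehicle libraries, and replicate 3 was below all of them. In replicate 3 the cluster led by Crabp1 and Cthrc1, 2091 of 2149 fibroblasts, had Vcam1 at 43.5 CPM, and the 58 fibroblasts shared with the other libraries had it at 229 CPM. Without clusters that came from 1 library the IPI-926 values were 130, 180 and 229 CPM, wholly above vehicle beside 3.03% of 11161 genes, and the log2 fold change was 0.93 (edgeR adjusted p = 0.999). Icam1 was at 61.7, 84.4 and 50.1 CPM after vehicle and at 60.3, 71.7 and 6.94 CPM after IPI-926 (-0.51, SE 0.76, edgeR adjusted p = 0.912). Without IPI-926 replicate 3 the log2 fold changes were 0.72 for Vcam1 and 0.031 for Icam1. In replicate 3 Icam1 was at 6.38 CPM in the cluster of its own and at 63.3 CPM in the shared cluster. The background was 0 of 12318 genes (0%) at an adjusted p of 0.05, with 487 at an unadjusted p under 0.05 and 36 called by DESeq2.

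Perivascular cells, the contractile cells around vessels, had Icam1 at 10.1, 51.1 and 12.6 CPM after vehicle and at 93.4, 72.7 and 49.8 CPM after IPI-926. Vehicle replicate 2 reached into the IPI-926 range. The log2 fold change was 1.53 with an SE of 0.59 (edgeR adjusted p = 0.999, 184 UMIs in all). It was 2.71 without vehicle replicate 2 (edgeR adjusted p = 0.108), and with no filter on low counts the adjusted p over more genes was 0.0176 at a log2 fold change of 1.51. Vcam1 was at 17.3, 52.4 and 14.4 CPM after vehicle and at 5.99, 8.45 and 13.6 CPM after IPI-926, on 72 UMIs, too few to enter the test. The IPI-926 values rest on 5, 5 and 3 UMIs, and 87.2% of the 39 UMIs of vehicle replicate 2 lay in 5 cells. The background at an adjusted p of 0.05 was 0% of 7067 genes (161 at an unadjusted p under 0.05, 4 called by DESeq2 and 27 with no filter).

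Neutrophils carried the highest Icam1. It was at 184, 1046 and 383 CPM after vehicle and at 639, 609 and 310 CPM after IPI-926, so the vehicle libraries spanned the IPI-926 ones (0.24, SE 0.54, edgeR adjusted p = 0.983). Within neutrophils Icam1 was higher in the cluster led by Mmp9 and Siglecf, at 349, 1220 and 476 CPM after vehicle and at 1698, 869 and 1578 CPM after IPI-926, than in the cluster led by Retnlg and Cxcr2. The latter was at 126, 493 and 199 CPM after vehicle and at 316, 318 and 175 CPM after IPI-926. The order held in 6 of 6 libraries, although IPI-926 replicate 3 had 20 cells of the former. A further neutrophil cluster, led by Hcar2, Ankrd33b and Ccl3, held 729 cells, 78.6% of them from IPI-926 replicate 1, and is left out of this order. Siglecf is known as a marker of tumour-associated neutrophils in mice, and Retnlg of circulating ones.

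Selp in neutrophils had the reverse order. It was at 37.5, 33.7 and 34.3 CPM after vehicle and at 32.0, 25 and 62.1 CPM after IPI-926 in the cluster led by Retnlg and Cxcr2, and at 0 to 7.83 CPM in every library in the cluster led by Mmp9 and Siglecf. Summed over neutrophils Selp was at 13.9, 13.2 and 14.8 CPM after vehicle and at 22.1, 13.9 and 55.9 CPM after IPI-926 (1.02, SE 0.48, edgeR adjusted p = 0.895), and the log2 fold change was 0.64 without IPI-926 replicate 3. Markers of platelets, which carry Selp transcripts, summed to 7.42 to 12.3 CPM in 5 neutrophil sums and to 0 in that of IPI-926 replicate 3. That sum had 191 cells, the fewest of any library, so a count of 0 there still allows a level above 0. The part of platelet RNA in Selp was not tested. The background was 1 of 8439 genes (0.0118%) at an adjusted p of 0.05, with 405 at an unadjusted p under 0.05 and 13 called by DESeq2. That gene was Gkn2, a secreted protein of gastric-type epithelium, which was lower after IPI-926, and which was also the 1 gene called in T cells (0.0137%) and in B cells (0.0362%). Gkn2 leads gastric-type clusters of ductal epithelial cells. Ductal cells numbered 1274, 408 and 2940 in the vehicle libraries and 65, 644 and 837 in the IPI-926 libraries. These numbers leave out an unnamed cluster of 1702 cells with 6 ductal markers detected, 45.6% of it from IPI-926 replicate 1. The part of stray epithelial RNA in these calls was not tested.

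In macrophages and monocytes Icam2 and Selp were highest in 1 cluster, led by Alox15, Fcna, Marco and Prg4. Icam2 was there at 244, 117 and 181 CPM after vehicle and at 113 and 241 CPM in IPI-926 replicates 1 and 2, and at 0 to 19.1 CPM in every other macrophage cluster with at least 20 cells. Selp was there at 108, 212 and 215 CPM after vehicle and at 223 and 288 CPM after IPI-926. Selp was also found outside it, at 0.330 to 87.5 CPM in the other macrophage clusters with at least 20 cells. IPI-926 replicate 3 had 14 cells of the cluster and gives no value. In mice Icam2 protein is a known surface marker of resident peritoneal macrophages.

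The share of that cluster was 44.8%, 7.12% and 15% of the class after vehicle and 2.88%, 43.4% and 0.332% after IPI-926. Icam2 in the class had the same order of libraries as this share, at 139, 10.7 and 28.4 CPM after vehicle and at 9.77, 110 and 5.46 CPM after IPI-926. Selp was at 65.9, 29.0 and 45.9 CPM after vehicle and at 28.7, 137 and 1.71 CPM after IPI-926, and did not keep pace with it: it differed between the libraries with shares of 44.8% and 43.4%, and hardly between those with 7.12% and 2.88%. Neither differed between the groups by the test (edgeR adjusted p = 1.0 for each, log2 fold changes -0.38 with an SE of 1.35 and 0.37 with an SE of 1.22). Without IPI-926 replicate 3 they were 0.15 and 0.94. Platelet markers summed to 967, 311 and 148 CPM after vehicle and to 170, 816 and 173 CPM after IPI-926 in this class, highest in the same 2 libraries as Selp. Those 2 libraries also had the largest shares of that cluster, 44.8% and 43.4%. Whether this marker RNA came from platelets or from the macrophages was not tested, nor was its part in Selp.

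Vcam1 in macrophages was at 11.4, 14.5 and 11.7 CPM after vehicle and at 28.8, 7.24 and 227 CPM after IPI-926. The fitted difference, 2.86 on the log2 scale with an SE of 1.14 (edgeR adjusted p = 1.0), came with IPI-926 replicate 3 and was 0.54 without it. In that library the cluster led by Cxcl9 and Fcgr4 had Vcam1 at 415 CPM over 1741 cells. The background was 0% of 13073 genes (249 at an unadjusted p under 0.05, 2 called by DESeq2).

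**Figure D5:**
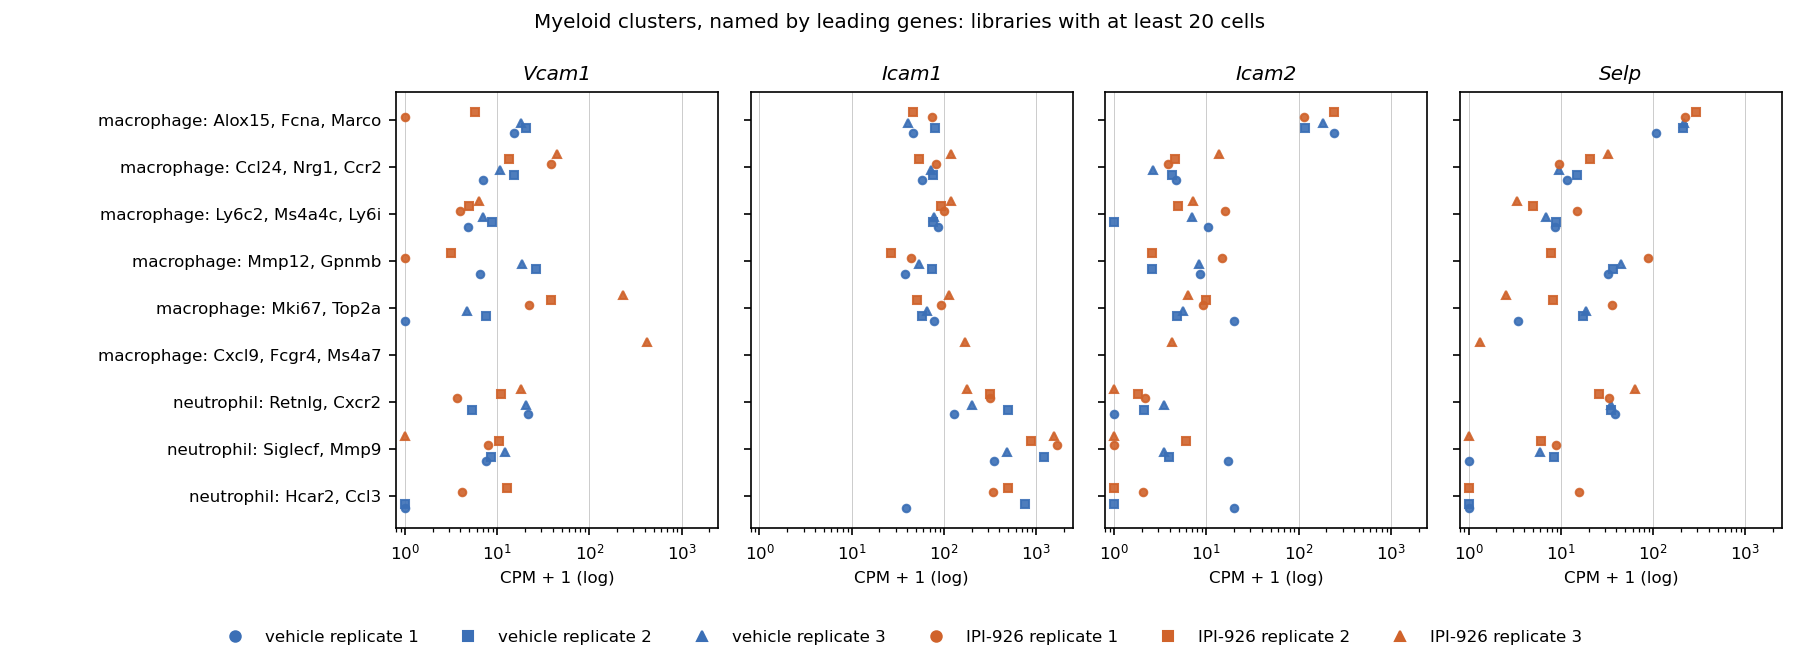
Level of 4 genes (CPM + 1, log axis) in macrophage and neutrophil clusters, named by leading genes, with 1 point per library that had at least 20 cells. Icam2 and Selp are highest in the cluster led by Alox15, Fcna and Marco, and Icam1 in the neutrophil cluster led by Siglecf and Mmp9.

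In ductal epithelial cells Vcam1 was at 162, 121 and 279 CPM after vehicle and at 132, 56.8 and 168 CPM after IPI-926 (-0.70, SE 0.48, edgeR adjusted p = 1.0; 0% of 14477 genes called, 365 at an unadjusted p under 0.05 and 19 called by DESeq2). Different clusters held the class in different libraries, and an unnamed cluster of 1702 cells with 6 ductal markers detected was outside it. The cluster led by Gc, Lcn2, Cp and Mmp7 had Vcam1 at 477, 216 and 705 CPM in the vehicle libraries and under 20 cells in each IPI-926 library. The cluster led by the gastric-type genes Gkn2, Gkn1, Gkn3 and Tff2 had it at 91.5, 67.3 and 114 CPM in the vehicle libraries and at 97.8 CPM in IPI-926 replicate 3. A cluster that held 551 of 644 ductal cells of IPI-926 replicate 2 had it at 32.6 CPM, and one that held 592 of 837 ductal cells of IPI-926 replicate 3 had it at 179 CPM.

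Genes that act with these molecules were read from 6 lists in endothelial and in mesothelial cells, and no list had a member that passed the test in either direction. In endothelial cells 12 of the 20 genes of NF-kappaB signalling and cytokine receptors had a positive fold change and 8 a negative one, with a median log2 fold change of 0.14, beside -0.01 over all 10495 genes. Ccl2, the monocyte chemokine, was at 12 ± 9.07 CPM after vehicle and 258 ± 399 CPM after IPI-926, with 1 library at 718 CPM (SD, n = 3, edgeR adjusted p = 0.96), and Csf1, the macrophage growth factor, at 7.50 ± 1.89 and 18.2 ± 2.79 CPM (1.30, SE 0.31, edgeR adjusted p = 0.96, named after the values were seen). Nfkbia, the NF-kappaB inhibitor, was at 498 ± 144 and 552 ± 228 CPM, Tnfrsf1a, a receptor for tumour necrosis factor, at 210 ± 35.5 and 199 ± 32.9 CPM, and Cxcl2, a neutrophil chemokine, at 73.2 ± 70.3 and 198 ± 211 CPM. Of the genes of the IL4, IL13 and shear stress response 3 were positive and 10 negative of 13 (median -0.18), with Klf2 at 593 ± 261 and 523 ± 81.9 CPM and Klf4 at 445 ± 126 and 312 ± 59.4 CPM, both transcription factors raised by flow.

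Of 14 tested genes of other endothelial adhesion, 5 were positive and 9 negative (median -0.11). Pecam1 was at 1088 ± 52.0 CPM after vehicle and 923 ± 21.1 CPM after IPI-926 (-0.17, SE 0.15, edgeR adjusted p = 0.96), and Cdh5, which encodes VE-cadherin, at 1046 ± 94.5 and 902 ± 66.3 CPM. Cd34 was at 757 ± 145 and 722 ± 76.9 CPM, and Emcn, an endothelial sialomucin, at 813 ± 244 and 744 ± 184 CPM. Of 9 tested genes tied to the storage granules that hold Vwf and Selp, 2 were positive and 7 negative (median -0.18). Cd63, which cycles with Selp, was at 218 ± 86.7 and 302 ± 115 CPM, Angpt2, a stored vessel-destabilising ligand, at 147 ± 70.1 and 110 ± 18.5 CPM, Ece1 at 369 ± 44.0 and 331 ± 71.3 CPM, and Thbd, thrombomodulin, at 150 ± 69.6 and 108 ± 25.4 CPM.

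Of 6 tested integrin and selectin ligand genes 1 was positive and 5 negative in endothelial cells (median -0.41). Itgb1 was at 935 ± 234 CPM after vehicle and 761 ± 143 CPM after IPI-926, and Podxl, a sialomucin, at 350 ± 140 and 280 ± 116 CPM. Madcam1, a venular ligand of the integrin that contains Itgb7, was at 117 ± 95.8 and 67.2 ± 22.6 CPM, and Cd24a, a sialylated surface protein that epithelium also carries, at 57.5 ± 27.0 and 23.6 ± 2.42 CPM (-1.22, SE 0.34, edgeR adjusted p = 0.96). Of 7 tested genes that build selectin ligands 3 were positive and 4 negative (median -0.18), with the sialyltransferases St3gal4 at 70.6 ± 20.1 and 81.0 ± 15.4 CPM and St3gal6 at 80.4 ± 18.6 and 113 ± 45.3 CPM.

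In mesothelial cells the medians of the 6 lists lay between -0.24 and 0.23, beside 0.00 over all 11787 genes. Il33, an alarmin stored in the nucleus, was at 181 ± 30.1 CPM after vehicle and 403 ± 137 CPM after IPI-926 (1.21, SE 0.30, edgeR adjusted p = 0.999). The NF-kappaB and cytokine list had 14 positive and 6 negative of 20 genes (median 0.10), with Ccl2 at 260 ± 169 and 287 ± 83.8 CPM, Cxcl1 at 307 ± 112 and 295 ± 242 CPM and Nfkbia at 448 ± 69.7 and 470 ± 219 CPM. Klf4 was at 845 ± 45.5 and 568 ± 154 CPM (-0.52, SE 0.24, edgeR adjusted p = 0.999), and Gata6, a transcription factor of the serosal lining, at 253 ± 24.0 and 189 ± 27.2 CPM. Itgb1 was at 446 ± 66.7 and 536 ± 202 CPM and Cd44, the hyaluronan receptor, at 119 ± 46.7 and 133 ± 42.0 CPM.

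Summed over all cells of a library, which mixes the level in a cell with the makeup of the tumour, no member passed either (0% of 17899 genes called, 683 at an unadjusted p under 0.05, and 113 called by DESeq2). Vcam1 had the largest difference, with 139 ± 80.2 CPM after vehicle and 63.8 ± 32.1 CPM after IPI-926 (-1.09, SE 0.58, edgeR adjusted p = 1.0). The direction was opposite to that in endothelial and mesothelial cells. Ductal epithelial cells, which held most Vcam1 UMIs, made up 4622 of the cells used in the vehicle libraries and 1546 in the IPI-926 libraries. The unnamed cluster of 1702 cells with ductal markers, 45.6% of it from IPI-926 replicate 1, is not in these counts. Fewer cells of a type and less RNA per cell cannot be told apart in such sums. The other 6 members had log2 fold changes between -0.45 and 0.41.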

How the data were processed

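Single-cell libraries from 6 tumours were read as UMI counts per gene and cell barcode, deposited by the authors as raw counts that had not been normalized. Per the submitters' processing notes the counts came from Cell Ranger 2.1.1 with mm10, while the file headers name version 6.1.2. A barcode entered with 500 or more UMIs, 300 or more genes and no more than 20% of its UMIs mitochondrial. Doublets were marked per library against simulated doublets and removed at 0.8% per 1000 barcodes (4565 cells). Cells were clustered jointly with scanpy 1.11.5 (2000 variable genes, 30 components, Leiden resolution 1) without the 7 genes and without integration of libraries. A cluster was named only when at least 3 markers of a class were detected. It still stayed unnamed if another class had as many or more markers among its 10 leading genes. The same held if its cells were low in UMIs and no marker of the class was among those genes. Unnamed clusters can thus hold markers of a class. Since the names were rebuilt here, classes may differ from the authors' own.

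Counts were summed per class and library (at least 20 cells) and tested with edgeR 4.0.16 (quasi-likelihood, TMM, filterByExpr, Benjamini-Hochberg adjustment at 0.05). limma 3.58.1 with a prior count of 2 tested differences of response, and DESeq2 1.42.0 was an alternative. The edgeR and limma steps were run on simulated data with planted changes larger than most member fold changes given here. Recovery of smaller changes was not tested. The labels name separate animals, so p-values measure the spread between mice, with 3 per group. Intervals and floors (3 counts) cover counting error only. Genes named beside the 7 members were the 3 most correlated with each member (among genes with a mean of at least 10 CPM in some class), the 4 highest of each list in each class, of which the text gives part, and Gli1 and Ptch1 as the check of the drug. Csf1, Esam and Plvap, and genes that lead clusters, fall outside this rule and were named after their values were seen. The members and lists were chosen with earlier results of these data known. Too few libraries held 20 acinar or plasma cells for a comparison of those classes. The genotype shared by all 6 mice is given in part, and the rest of it is not reported here.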

Additional observations from a re-analysis of the deposited data

How the results depend on the processing

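Over 22 fold changes of members, 269 of 288 alternatives kept the direction and the side of the threshold, 17 turned the direction and 2 passed the threshold. Of 48 alternatives for the 7 differences of response 45 kept both, and of 167 alternative counts of called genes 123 stayed within 1.5 times. The mean level of each member in its highest class moved by less than 1 SD in 14 of 14 alternatives of the cell filter and doublets. The cause of the changes below was not tested. DESeq2 called 19 genes in endothelial cells, 31 in mesothelial cells, 36 in fibroblasts, 4 in perivascular cells, 2 in macrophages, 19 in ductal cells, 13 in neutrophils, 3 in T cells, 113 in all cells summed and 2 in venous-like cells. With no filter on low counts the calls were 5 in endothelial, 1 in mesothelial, 27 in perivascular, 125 in neutrophils, 33 in T cells, 12 in dendritic cells, 29 in B cells and 37 in venous-like cells, and Icam1 in perivascular cells (1.51, edgeR adjusted p = 0.0176) and Ackr1 in venous-like cells (1.09, edgeR adjusted p = 0.0297) then passed. Limma-voom called 0 genes in neutrophils and 0 in T cells, and keeping doublets gave 0 in neutrophils. With limma-voom Selp was at -0.10 in endothelial cells and -1.20 in macrophages and Sele at -0.86 in mesothelial cells, and Icam1 in fibroblasts was at 0.0096 without clusters from 1 library.

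Leaving out 1 library at a time moved the calls to between 0 and 5 in endothelial cells, 0 and 1 in mesothelial cells, 0 and 1 in perivascular cells, 0 and 1 in macrophages, 1 and 2 in neutrophils, 0 and 3 in T cells, 1 and 7 in B cells, 0 and 23 in venous-like cells, 0 and 4 for mesothelial minus endothelial responses and 0 and 2 for fibroblast minus endothelial responses. In endothelial cells Icam1 then ranged from -0.027 to 0.69, Sele from -0.34 to 1.14, Selp from -0.33 to 0.73 and Vwf from -0.66 to 0.18. In fibroblasts Vcam1 ranged from -0.060 to 0.72 and Icam1 from -0.91 to 0.031. Icam1 in neutrophils ranged from -0.15 to 1.03, Icam2 in macrophages from -2.98 to 1.25, Selp in macrophages from -1.66 to 0.94 and Vwf in venous-like cells from -0.53 to 0.094. The difference of response of Icam1 between mesothelial and endothelial cells ranged from -0.57 to 0.57, and that of Ackr1 between fibroblasts and endothelial cells from -1.35 to 0.26. The number of the 14 shares of cells that reached the smallest exact p ranged from 0 to 3. It was 1 when cells were thinned to 500 UMIs (Vcam1 in endothelial cells), 1 at 2000 (the same) and 2 without thinning. The share of mesothelial cells with Sele differed by -0.33 percentage points, by -0.57 to 0.16 with a library left out, by 0.098 at 500 UMIs, 0.489 at 2000 and 1.45 without thinning. Leaving out the lymphatic-like cells, or the endothelial subclusters led by genes of other cell types, was chosen after seeing the data. No paired analysis was possible because the labels give no replicate numbers and tie no vehicle mouse to an IPI-926 mouse. Perivascular and venous-like sums held as few as 31 and 21 cells, which limits their precision.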
